A study of Lilium davidii var. unicolor with 6 samples.

Results

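The subject is a set of 196 abundant transcripts of lily bulb scales whose level was moderately higher after methane-rich water (MRW) than after distilled water. The members were chosen by measured values in these same libraries. A transcript entered the set if it averaged at least 50 CPM (counts per 1000000 counts of the library) over the 6 libraries, if its mean in MRW was at least 1.3 and under 2 times its mean in control, and if its lowest MRW value lay above its highest control value. The ratio was taken with 0.1 CPM added to both means. The set makes up 5.83% of the 3360 transcripts of at least 50 CPM and was drawn from a table of 14140 transcripts. Direction, size and separation of the members were fixed by that choice, so they are given as a description, with no test.

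The tissue was the bulb scale of Lilium davidii var. unicolor, an edible lily. The treated group (MRW, n = 3) received 100% methane-rich water, which is water charged with methane gas, and the control group (n = 3) distilled water. Scales of both groups were soaked for 3 h, set in moist perlite and vermiculite in the dark at 25 °C by day and 18 °C by night, watered every 3 days and sampled over about 2 cm at their base 10 days after cutting. Each of 3 biological replicates held 40 scales, so a library pools many scales, and the labels do not name a shared batch.

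A bulb scale is a swollen storage leaf rich in starch. When it is detached, cells near the cut base divide and form bulblets, a common way to multiply lilies. During that period stored reserves are drawn down while new meristems, leaves and roots are built. In such bulk tissue, more cells of a type and more RNA per cell cannot be told apart. The rows of the table carry transcript identifiers and lengths but no gene names. Roles of the members and marker checks of the tissue were therefore not analysed here, and several members can come from 1 gene.

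The MRW libraries held 25031246, 22154105 and 27073860 estimated counts, and the control libraries 22854766, 20988773 and 28031469. One control library stood apart in its balance of long and short transcripts. Transcripts over 2000 bases took 12.4%, 12.4% and 12.2% of the counts in MRW replicates 1, 2 and 3, against 10.6%, 12.2% and 9.87% in control replicates 1, 2 and 3. Control replicate 2 was thus at the MRW level and the other control libraries below it. The main results that turn on this are also given without that library.

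The members sat in the middle of the abundant transcripts and not at their top. Their mean level ranged from 50.1 to 884 CPM with a median of 86.0, against a median of 98.8 CPM for the 3164 other transcripts of at least 50 CPM. Of the 196, 82 averaged at least 100 CPM, 39 at least 200 and 6 at least 500. The most abundant member was only the 118th transcript of the table by CPM. Per unit of length the members were lower than their neighbours, with a median of 82.5 FPKM (a level scaled to transcript length as well as to library size) against 143 FPKM for the others.

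**Figure D1:**
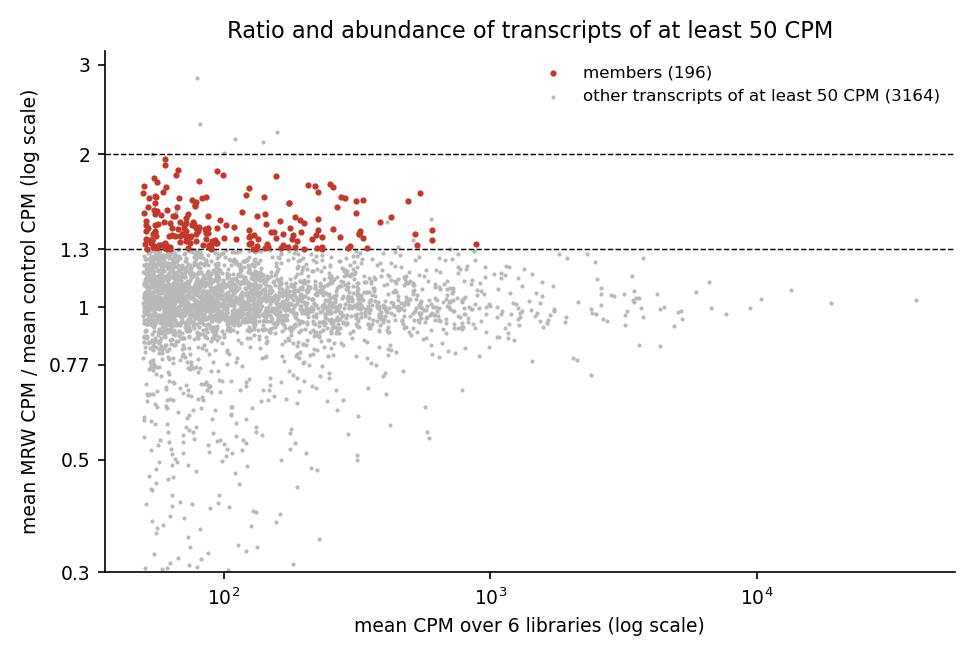
Ratio of mean MRW CPM to mean control CPM plotted against mean CPM over 6 libraries, both on log scales, for the 3360 transcripts of at least 50 CPM. The 196 members (red) fill the band from 1.3 to 2 marked by dashed lines and thin out above 500 CPM, where 6 of them lie, and 86 other transcripts fall below the lower end of the axis.

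Together the members took a larger part of all counts in each MRW library than in any control library, as the rule requires. Their summed share was 3.21%, 3.22% and 3.19% in MRW replicates 1, 2 and 3, against 2.15%, 2.36% and 2.13% in control replicates 1, 2 and 3. The group means were 3.21% ± 0.0182 and 2.21% ± 0.128 (SD, n = 3 each), a ratio of 1.45. The treated libraries were nearly alike, and control replicate 2 was the highest of the controls. On a per-length scale the members held 2.18% ± 0.0529 of the summed FPKM in MRW and 1.44% ± 0.0421 in control (SD, n = 3 each). The 49 members of up to 1000 bases took 0.912% ± 0.0245 of the counts in MRW and 0.613% ± 0.0410 in control. The 87 members over 2000 bases took 1.25% ± 0.0202 in MRW and 0.871% ± 0.124 in control, and control replicate 2, at 1.01%, was again the nearest to MRW. Without that library the control mean of the long members was 0.802%.

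Most members lay near the lower edge of the band. The ratio of means had a median of 1.41 and quartiles of 1.35 and 1.53. It was at least 1.4 in 106 members and at least 1.5 in 61, and the highest value was 1.96. Counting error was small beside these ratios. The lowest count of any member in any library was 643, and the median 2214.5, for which counting alone gives an SD of 3.94% and 2.13%. These SDs cover counting error only.

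The gap between the groups cannot by arithmetic be wider than the ratio of the plain means, so its size is given as a description. The lowest MRW value exceeded the highest control value by a median factor of 1.19. That factor was at least 1.1 in 155 members, at least 1.3 in 50 and at least 1.5 in 10. Of the 3360 abundant transcripts, 741 (22.1%) had their lowest MRW value above their highest control value. Of these 741, 538 had a ratio under 1.3 and 7 a ratio of 2 or more, and the members are the rest.

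Values just on each side of the limits were close together. The 3 members nearest to the lower ratio limit had ratios of 1.301, 1.302 and 1.302, and the 3 transcripts just outside it 1.29997, 1.299 and 1.298. At the upper limit the nearest members had 1.96, 1.91 and 1.86, and the nearest transcripts outside 2.005, 2.02 and 2.11. At the abundance limit the nearest members averaged 50.1, 50.2 and 50.2 CPM, and the nearest outside 49.9, 49.7 and 49.4 CPM. Another 13 transcripts met the abundance and ratio limits but had overlapping groups, the nearest with a lowest MRW value 0.998 times its highest control value. The nearest members inside had factors of 1.003, 1.004 and 1.005.

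The most abundant member was transcript_HQ_Ld3_vu_transcript15419/f8p0/1656, a sequence of 1656 bases. It had 1088, 969.9 and 974 CPM in MRW replicates 1, 2 and 3, against 692, 857 and 726.5 CPM in control replicates 1, 2 and 3. The groups did not overlap, but control replicate 2 came within a factor of 1.13 of the lowest MRW library. Its means were 1010.5 ± 67.2 CPM in MRW and 758 ± 86.7 CPM in control (SD, n = 3 each), a ratio of 1.33. In the deposited FPKM values it averaged 721 ± 45.9 in MRW and 542 ± 62.3 in control.

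The widest gap between groups belonged to transcript_HQ_Ld3_vu_transcript27441/f4p0/533, a short sequence of 533 bases. It had 83.2, 81.4 and 76.1 CPM in MRW replicates 1, 2 and 3, against 42.0, 37.9 and 42.7 CPM in control replicates 1, 2 and 3. Its lowest MRW value was 1.78 times its highest control value, and its ratio of means was 1.96, the highest of the set. The means were 80.2 ± 3.66 CPM in MRW and 40.9 ± 2.56 CPM in control (SD, n = 3 each), or 288 ± 11.9 and 148 ± 8.64 FPKM. All 6 of its counts were whole numbers, from 1803 to 2082 in MRW and from 796 to 1196 in control.

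The other abundant members differed in length and in how tightly their replicates lay. The second most abundant, of 828 bases, had 812, 651 and 674 CPM in MRW against 500.5, 450.4 and 552 CPM in control. The third, of 1292 bases, had 701, 679 and 703 CPM in MRW against 493, 546 and 496 CPM in control. The third thus had the tightest MRW group of the 10 most abundant, and in the second MRW replicate 1 stood well above the other treated libraries.

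The fourth, of 4286 bases, combined high abundance with the largest ratio among the 10 most abundant, 1.68. It had 660.2, 688 and 705 CPM in MRW against 393, 481 and 348 CPM in control, with control replicate 2 again nearest to MRW. The fifth and sixth, of 2150 and 2158 bases, had ratios of 1.33 and 1.39, and in both control replicate 2 was the highest control, at 520.8 and 478 CPM. Their lowest MRW values were 581 and 594 CPM.

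The seventh most abundant member was also the shortest, at 423 bases, and had the highest level per unit of length. Its FPKM was 3700.2, 3842 and 3201 in MRW replicates 1, 2 and 3, against 2230.4, 1973 and 2584 in control replicates 1, 2 and 3. Here control replicate 2 was the lowest control, the reverse of the long members. Its means were 3581 ± 337 FPKM in MRW and 2263 ± 307 FPKM in control (SD, n = 3 each).

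The eighth, of 1598 bases, had the widest spread within MRW of the 10. It had 389.5, 549 and 594 CPM in MRW against 319.6, 376 and 323 CPM in control, so that MRW replicate 1 lay only 1.04 times above the highest control. The last pair of the 10, of 756 and 669 bases, had ratios of 1.47 and 1.31. The shorter of them had 398, 396 and 382 CPM in MRW against 305, 269.9 and 323 CPM in control.

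**Figure D2:**
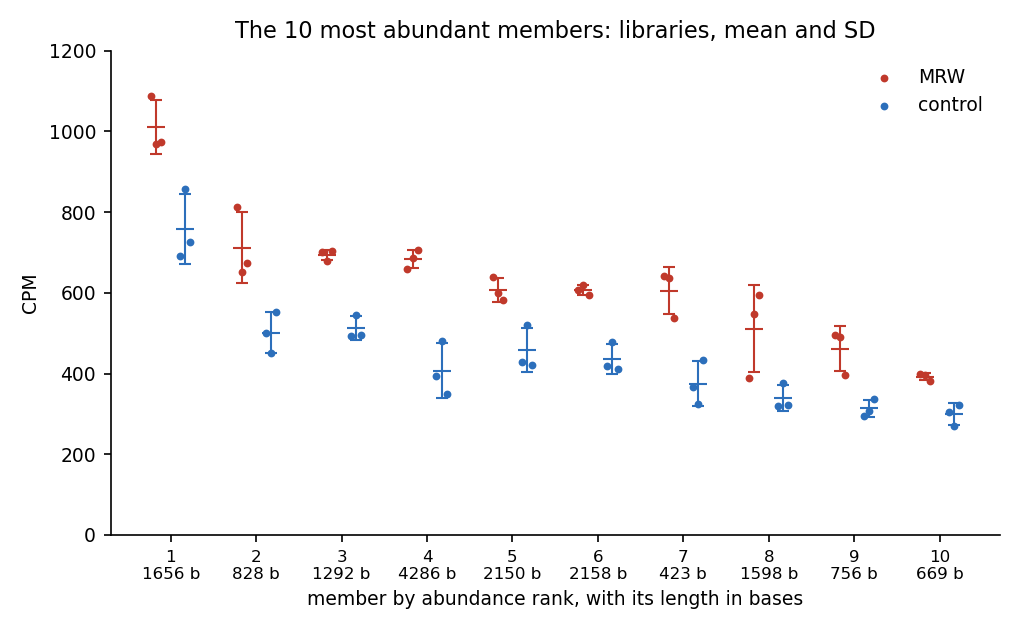
CPM of the 10 most abundant members in each library, with MRW (red) left of control (blue). Points are the 3 libraries of a group and bars the mean ± SD, and the number under each rank is the length in bases. Every MRW point lies above every control point of the same member, as the choice of members requires, and the eighth member shows the narrowest gap.

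The longest member, of 8227 bases, showed the opposite extreme from the tight short ones. It had 181, 222 and 264 CPM in MRW replicates 1, 2 and 3, against 180.2, 142 and 121 CPM in control replicates 1, 2 and 3. Its groups were all but touching, with a factor of 1.004 between the lowest MRW and the highest control library.

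The members were longer than other abundant transcripts. Length was not a term of the rule, but the ratio that the rule used rose with length among the others too, as given below. The difference in length is therefore not independent of the choice. The median length was 1859 bases for the members (quartiles 1003 and 2565), against 1024 bases for the 3164 others (quartiles 724 and 1499). For comparison, a mirror set was taken with the same limits but lower in MRW, and its 161 transcripts, which are among the 3164, had a median of 885 bases. Of the members 87 (44.4%) exceeded 2000 bases, against 13 (8.07%) of the mirror set and 318 (10.1%) of the others. Sets found by the same rule with 1 library left out held 56.6% over 2000 bases without control replicate 2 and 31.1% without control replicate 3. Read the other way, the members were 21.5% of the 405 abundant transcripts over 2000 bases. They were 4.36% of the 1377 between 1000 and 2000 bases and 3.11% of the 1578 up to 1000 bases. At least 4000 bases were reached by 8 members (4.08%) and by 10 of the others (0.316%). Transcripts are not replicates, so these shares carry no p.

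**Figure D3:**
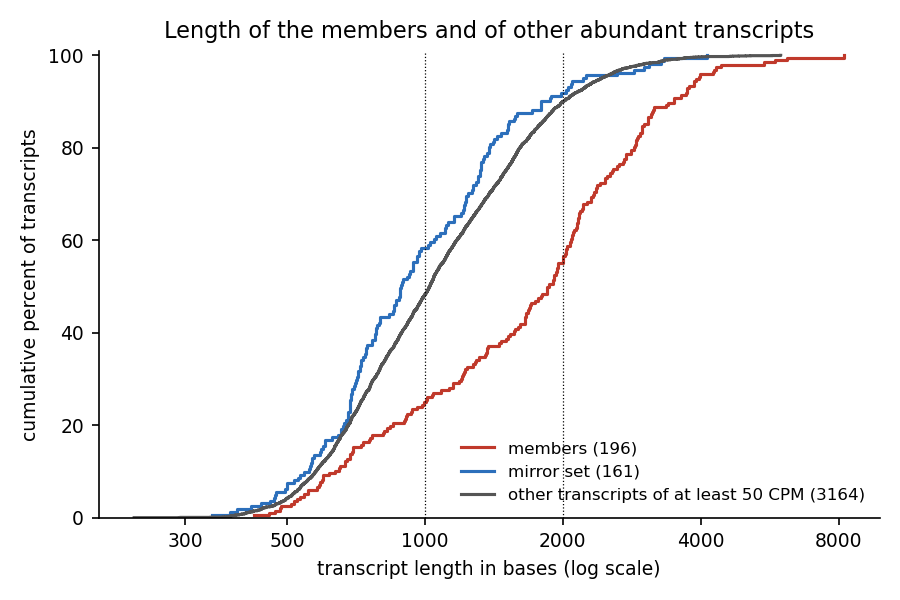
Cumulative percent of transcripts by length (log scale) for the 196 members, the 161 transcripts of the mirror set and the 3164 other transcripts of at least 50 CPM, which include the mirror set. The curve of the members runs to the right of both, with medians of 1859, 885 and 1024 bases, and dotted lines mark 1000 and 2000 bases.

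The difference in length depended on which control libraries were used and on a trend with length over the whole table. When the rule was applied without control replicate 3, 183 transcripts met it, and their median length exceeded that of the other abundant transcripts by 325 bases, against 835 bases with all libraries. Without control replicate 2, 332 transcripts met it, with a difference of 1125 bases. When a robust smooth trend of level on length was removed from each library, 109 met it and their median lay 58 bases below that of the others. With an ordinary least-squares trend, 335 met it and the median lay 218 bases below. The unit mattered as well. When FPKM rescaled to a common total (TPM) took the place of CPM in the same limits, 136 transcripts met them. Their median length was 821 bases, and 15 were over 2000 bases. A limit per length admits fewer long transcripts, and TPM also changes the scaling between libraries. These effects were not separated. Removing a length trend acts on any difference that goes with length, whatever its origin.

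Long and short members behaved differently under that step. After removal of the robust trend, all 49 members of up to 1000 bases still met the rule, with a median ratio of 1.49 against 1.47 before. Of the 60 members between 1000 and 2000 bases, 37 still met it, and of the 87 longer ones 13. The median ratio of the long members was then 1.17, against 1.39 before. The lowest ratio of any member was then 1.06. All members were chosen for non-overlapping groups, and 170 kept them, among them 63 of the 87 long ones. The share over all abundant transcripts after this step was not taken, so these counts are a description only. The least-squares trend left 43, 56 and 25 members of the 3 classes within the rule, from short to long. After it the median ratio was 1.70 in the short members and 1.14 in the other short abundant transcripts, against 1.47 and 0.985 before.

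Other abundant transcripts of the same length shared part of the pattern. Over 2000 bases the median ratio was 1.39 in the members, against 1.16 in the others. Between 1000 and 2000 bases it was 1.41 in the members and 1.03 in the others, and up to 1000 bases 1.47 in the members and 0.985 in the others. The distance between members and non-members was thus smallest in the longest class. The members' ratios were selected to be at least 1.3, so their distance from the others is a description.

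With all 3 libraries of each group, the control replicates of the members were spread more widely than those of MRW. The spread within control was smallest when control replicate 2 was left out. The coefficient of variation among the members had a median of 5.996% in MRW and 10.6% in control, against 4.79% and 7.01% in the 3164 others. With 1 control left out, the control median of the members was 4.77% without control replicate 2. It was 12.6% without control replicate 1 and 9.81% without control replicate 3. These values rest on 2 libraries, which tend to give a lower median coefficient than 3, so they are not set against the MRW value. The coefficient was larger in control than in MRW in 138 of the 196 members (70.4%), against 2112 of the others (66.8%). Setting 2 control libraries against 3 of MRW is an unlike comparison, so the next counts are read only beside those of the 3164 others. The control coefficient was larger in 88 members and 1341 others without control replicate 2. It was larger in 133 members and 2038 others without control replicate 1. Without control replicate 3 it was larger in 129 members and 1891 others.

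The spread within control was widest in the longest class, in members and others alike, with no steady change with length in MRW members. Over 2000 bases the median was 5.50% in MRW and 14.8% in control for the members, against 5.78% in MRW and 13.5% in control for the others. Up to 1000 bases it was 5.37% in MRW and 7.48% in control for the members, against 4.53% in MRW and 6.32% in control for the others. Between 1000 and 2000 bases it was 7.35% in MRW and 7.55% in control for the members. For the others of that class it was 4.83% in MRW and 6.83% in control. In that class the coefficient was larger in control than in MRW in 28 of the 60 members and in 846 of the 1317 others. Over 2 controls, medians of long members were 6.21% without control replicate 2, 19.5% without control replicate 1 and 13.3% without control replicate 3. A highest library at least 1.3 times the lowest, the lower limit on the ratio between groups, was found within MRW in 17 members (8.67%). Within control it was found in 61 (31.1%). Among the others this held within MRW for 162 (5.12%) and within control for 300 (9.48%). Over 2000 bases it held within control for 51 of 87 members and 150 of 318 others. With control replicate 2 left out, 8 members and 64 others had such a spread within control. With control replicate 3 left out it was 26 members and 96 others, and with control replicate 1 left out 56 members and 252 others. A range over 2 libraries cannot exceed that over all 3, so these counts are not set against that of MRW.

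The order of the control libraries followed length. Control replicate 2 was the highest control in 127 of the 196 members, control replicate 3 in 36 and control replicate 1 in 33. Over 2000 bases, control replicate 2 was highest in 79 of 87 members and control replicate 3 lowest in 74. Up to 1000 bases the order turned over, with control replicate 3 highest in 32 of 49 and control replicate 2 lowest in 39. The order was not particular to the members: among the others, control replicate 2 was highest in 89.9% of those over 2000 bases and lowest in 73.7% of those up to 1000 bases.

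**Figure D4:**
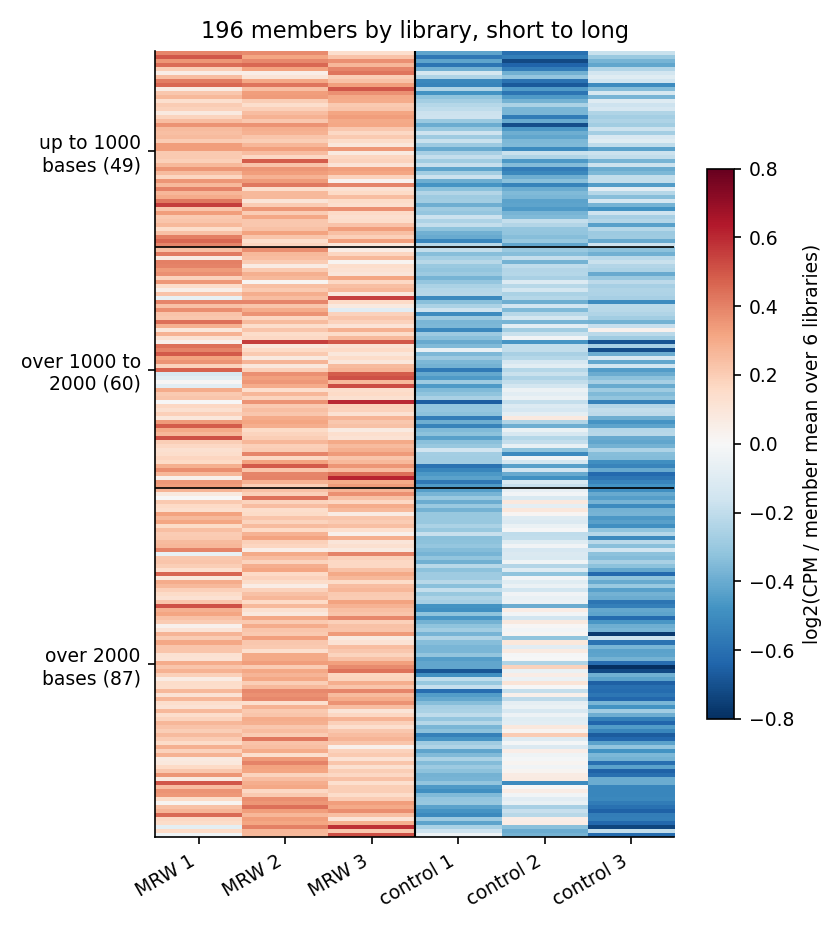
Each row is 1 of the 196 members, sorted from short to long, and each column 1 library, with MRW left of control. Colour gives log2 of CPM over the member's mean of 6 libraries, limited at 0.8 (1 value lies beyond). Control replicate 2 is pale in the rows over 2000 bases, where it was the highest control in 79 of 87, and dark in many short rows, where it was the lowest in 39 of 49.

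Control replicate 2 therefore came closest to MRW among long members. Over 2000 bases its median level was 0.836 of the MRW mean, against 0.680 in control replicate 1 and 0.628 in control replicate 3. Up to 1000 bases the values were 0.644 in control replicate 2, 0.682 in control replicate 1 and 0.717 in control replicate 3. With control replicate 2 left out, the median ratio of the 87 long members was 1.52, against 1.39 with all libraries, and 86 stayed in the band from 1.3 to 2. With control replicate 3 left out it was 1.31, and 52 stayed in the band. The 49 short members moved less, to medians of 1.44 and 1.52 in these cases, with 44 and 47 in the band.

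**Figure D5:**
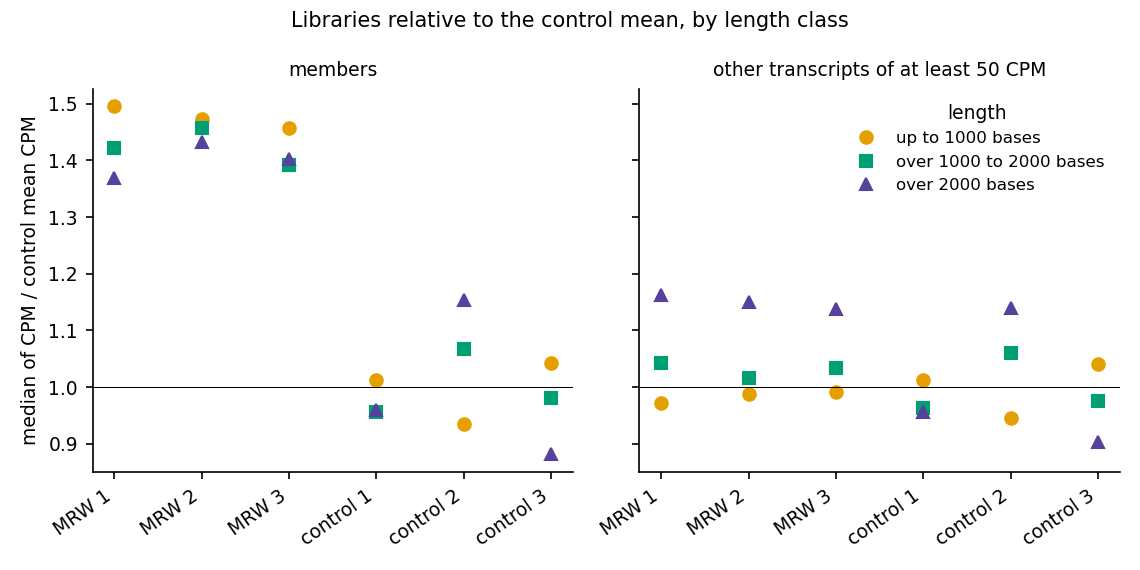
Median over transcripts of each library's CPM divided by the control mean, by length class, for the members (left) and for the other transcripts of at least 50 CPM (right). The MRW libraries lie between 1.37 and 1.495 in the members, and in both panels control replicate 2 is above the other controls for transcripts over 2000 bases (1.15 in members, 1.14 in the others) and below them up to 1000 bases (0.934 and 0.945).

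The order of the treated libraries was less one-sided but also differed with length. Over all members, MRW replicates 1, 2 and 3 were the highest in 76, 67 and 53 and the lowest in 80, 42 and 74. MRW replicate 1 was the highest treated library in 22 of 49 short members and the lowest in 41 of 87 long ones. MRW replicate 3 was the lowest in 25 of the 49 short members, and MRW replicate 2 the highest in 40 of the 87 long ones. Across the 9 pairings of a treated with a control library, the median ratio of the members ranged from 1.3003 (MRW replicate 3 over control replicate 2) to 1.53 (MRW replicate 2 over control replicate 3). In none of the 9 pairings did a member fall below 1, which the rule guarantees.

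Decimals were more frequent in the counts of the members than in those of other abundant transcripts. Estimated counts can take decimals when a read that fits several sequences is divided among them, but the program used here was not given. They were found in 140 of the 196 members (71.4%), in 93 of the 161 of the mirror set (57.8%) and in 1640 of the 3164 others (51.8%). The share with whole counts was similar in short, middle and long members, at 30.6%, 28.3% and 27.6%. In the others of these classes it was 43.8%, 55.0% and 40.9%. If reads were divided in that way, the level of a single sequence with decimals depends on the division, so it is uncertain. The 56 members with whole counts had a median ratio of 1.37 and a median length of 1817 bases, against 1.43 and 1883 bases for those with decimals. The 56 alone took 0.791% ± 0.0144 of the counts in MRW and 0.562% ± 0.0317 in control (SD, n = 3 each).

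The number of full-length reads behind a sequence, given after the letter f in identifiers of this long-read form, had the same middle in both sets. Its median was 5 in the members and 5 in the others, with upper quartiles of 13.25 and 10. Of the members 46 (23.5%) rested on 2 such reads, against 714 (22.6%) of the others. At the upper end, 3 members had over 100 full-length reads, namely 215, 199 and 163. These 3 were 2869, 2367 and 1867 bases long and averaged 126, 78.9 and 135 CPM, so the most often read sequences were not the most abundant by CPM.

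In the fit over the whole table, 163 of the 196 members were called higher in MRW, with edgeR's quasi-likelihood method and p adjusted after Benjamini and Hochberg over the 13331 transcripts tested, at a limit of 0.05. Over all transcripts tested 750 (5.63%) were called higher, and of the abundant ones 202 (6.01%). The same contrast chose the members, so their number is not evidence about them. By length, 43 of the 49 short, 53 of the 60 middle and 67 of the 87 long members were called. Of the 90 members with a ratio under 1.4, 67 were called, and of the 45 between 1.4 and 1.5, 38. The share called over all abundant transcripts was not taken by length or ratio class, so these splits are a description only. The median fitted log2 fold change was 0.42 for the members (range 0.30 to 0.89), against -0.05 for all abundant transcripts and 0.02 for all tested. With 1 library left out, the number called moved with that of the whole table. It was 82 without MRW replicate 2, where 2.40% of all transcripts tested were called higher, 94 without MRW replicate 3 (2.93% of all) and 84 without control replicate 1 (2.78% of all). It was 172 without control replicate 2, where 9.61% of all were called.

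The size of the ratio, and with it membership, depended on the scaling between libraries. With library totals, which the rule uses, the median log2 ratio of the transcripts tested was 0.10, so the typical tested transcript was itself slightly higher in MRW. It was 0.02 with TMM factors, 0.01 with RLE factors and 0.14 with upper quartile factors. Among transcripts of at least 50 CPM, from which the members come, the median was lower, at 0.03 with library totals. There it was -0.05 with TMM, -0.06 with RLE and 0.07 with upper quartile factors. The median ratio of the members was 1.41 with library totals, 1.34 with TMM, 1.33 with RLE and 1.45 with upper quartile factors. Such factors change every ratio by nearly the same multiple. Of the 196, 124, 120 and 195 still met the rule under TMM, RLE and upper quartile factors.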

How the data were processed

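Estimated counts and FPKM per transcript and library were deposited by the authors, with transcript lengths in bases. The counts are not normalized, and the authors' FPKM values were used as deposited. Subread is listed in the submitters' processing notes, without its role. Alignment to soybean is stated in the design text, whereas the rows carry long-read transcript identifiers, so the target is uncertain. The program behind the estimated counts was not given in the sources used here.

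CPM was the estimated count times 1000000 over the column total. Counts within 0.005 of a whole number were taken as whole. For the fit over all transcripts, counts were rounded, filtered with filterByExpr (minimum count 10, minimum total 15; 13331 kept, 809 removed), scaled by TMM and tested with edgeR 4.0.16 (glmQLFit and glmQLFTest, treatment only, R 4.3.3), with Benjamini-Hochberg adjustment at 0.05. Alternatives used DESeq2 1.42.0, limma 3.58.1 and a loess trend on log2 length (span 0.3). A robust loess trend and the spread within control with each control library left out were added after seeing the data.

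The members and measures were chosen with earlier results of these data known. By rule, 2 members are given by identifier (highest mean CPM, widest gap), and others by rank or by position at a limit. Members picked for most full-length reads were chosen after their values were seen. Between replicates within a group, chi-square per degree of freedom was 8.17 to 27.1, a spread above counting error. Such values alone cannot show that libraries are separate samples. Each was counted as a sample because the labels call the replicates biological.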

Additional observations from a re-analysis of the deposited data

How the results depend on the processing

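The number of members (196) was 127 with TMM and 123 with RLE scaling, 335 with the least-squares length trend removed and 109 with the robust one. It was 406 and 82 with minimum means of 25 and 100 CPM, and 398 and 106 with ratios of at least 1.2 and 1.4. Whole counts alone gave 56, since fewer transcripts qualify. With one library left out it lay between 183 and 332, the highest without control replicate 2. With TPM in place of CPM it was 136, of which 89 are among the 196. The number of members called higher (163) was 108 with the replicate block (3.51% of all transcripts called higher, against 5.63%), and 82 to 172 with one library left out (2.40% to 9.61% of all). The labels do not say what a number shares, deviations from group means correlated at -0.263 to -0.141 between libraries of the same number, and 0 of 6 were most alike to their own number. The number called was 194 with the DESeq2 Wald test (6.86% of all) and 164 with limma-voom (6.04% of all). The median log2 fold change (0.42) was 0.54 with upper quartile factors and 0.50 with library totals, as their shift of all transcripts implies, and 0.39 to 0.46 with one library left out. The difference in summed share (0.993 percentage points) was 0.739 of summed FPKM, 0.229 for members with whole counts, and 0.952 to 1.07 with one library left out. The difference in median length (835 bases) was -218 and -58 with the least-squares and the robust trend removed, and 325 to 1125 with one library left out, lowest without control replicate 3; no replicate spread exists for it, and a change of over 1.5 times was counted as a move. The cause of these moves was not tested. The member with the widest gap kept its call in all 15 refits and the most abundant one in 9 (lost with the replicate block and without each library but control replicate 2), with the direction kept in all.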
